A study of Mus musculus with 6 samples.

Results

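The ADAM and ADAMTS gene family of mouse primary lung fibroblasts was followed here through treatment with cold-inducible RNA-binding protein. Its members were taken by symbol from the deposited count table, as every protein-coding gene whose symbol is Adam, Adamts or Adamtsl followed by a number. The rule found 58 genes among 55487 in the table, of which 21936 are protein coding. These comprised 34 Adam, 19 Adamts and 5 Adamtsl genes. Fibroblasts came from lungs of wild-type C57BL/6 mice and were held in 0.1% serum for 24 h in both groups. The rmCIRBP group then received recombinant mouse CIRBP at 1 µg/mL for 24 h, and the PBS group received the same buffer without the protein for 24 h. Each group held 3 RNA-seq libraries, numbered 1 to 3, sequenced in a single batch. The labels do not say whether the libraries came from separate animals or cultures, so p-values reflect the spread among these samples alone, which may be technical.

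ADAM proteins are membrane-anchored metalloproteases with a disintegrin domain. Those with an intact zinc site cut growth factors, cytokines, receptors and adhesion proteins from the cell surface, and ADAM17 is known as the enzyme that releases tumour necrosis factor. ADAMTS proteins are secreted relatives with thrombospondin repeats that process procollagens and cleave matrix proteoglycans such as versican and aggrecan. ADAMTS-like proteins keep the ancillary domains but have no protease domain, and fibroblasts are a main source of both secreted groups in connective tissue. CIRBP outside the cell is known as a danger signal that acts through innate immune receptors.

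Depth was 13677385 to 14001478 counts in rmCIRBP libraries and 12105584 to 14262375 counts in PBS libraries. A count of 0 therefore allows up to 0.210 to 0.248 CPM (counts scaled to a library total of 1000000), which covers counting error only. Of 8 fibroblast markers, Col1a1 was highest at 7815 to 11755 CPM over the 6 libraries and Lum lowest at 0.578 to 2.65 CPM; Dcn was called higher and Thy1 lower. Summed epithelial markers stayed at 2.60 to 6.25 CPM in rmCIRBP and 2.33 to 5.04 CPM in PBS libraries, with Krt8 at 0. Summed endothelial markers were 5.93 to 8.24 CPM in rmCIRBP and 19.5 to 26.7 CPM in PBS libraries, with Tie1 and Cldn5 at 0 and Pecam1 and Cdh5 at no more than 0.416 CPM. Of the 7 listed, 3 were tested, and Kdr and Tek were called lower, beside 4.77% of all tested genes. Kdr and Tek carry the difference in the sum, with Kdr at 0.795 to 1.54 CPM in rmCIRBP and 11.1 to 16.5 CPM in PBS libraries. Of 12 macrophage and leukocyte markers, 7 were tested, and of these 2 were called higher and 1 lower. Over all tested genes, 6.74% were called higher and 4.77% lower. Cd3e and S100a9 had no count, and the sum of the 12 was 75.7 to 144 CPM in rmCIRBP and 117 to 151 CPM in PBS libraries. Summed mesothelial markers were 2.64 to 5.74 CPM in rmCIRBP and 8.38 to 13.7 CPM in PBS libraries. Of the 4 listed, 2 were tested and 1 was called lower. In bulk samples, fewer cells of a type and less RNA per cell cannot be told apart, and the part of these markers in the results below was not tested.

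After rmCIRBP, the sheddase genes Adam17 and Adam12 and the secreted protease genes Adamts14 and Adamts7 rose, by 1.68-fold to 2.67-fold. Adam33, Adam22, Adam5 and the ADAMTS-like gene Adamtsl1 fell, to 22.8% to 38.5% of the PBS level. These 8 were the called genes among the 32 members with enough counts to be tested. Testing used the quasi-likelihood F test of edgeR with Benjamini-Hochberg adjustment over all 15801 tested genes at 0.05. The 8 called members make up 25.0% of the tested ones, against 11.5% called over all tested genes. In each direction 4 members passed, or 12.5%, beside 6.74% of all genes called higher and 4.77% called lower. The median log2 fold change was -0.16 over the tested members and -0.01 over all tested genes, while the median size of the change was 0.62 and 0.28. The 2 groups of libraries did not overlap for 12 members, or 37.5%, which is near the 34.6% of all tested genes. No tested member met the filter's count minimum in 1 group alone. The other 26 members were too low to test, and 11 of them had no count in any library.

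**Figure D1:**
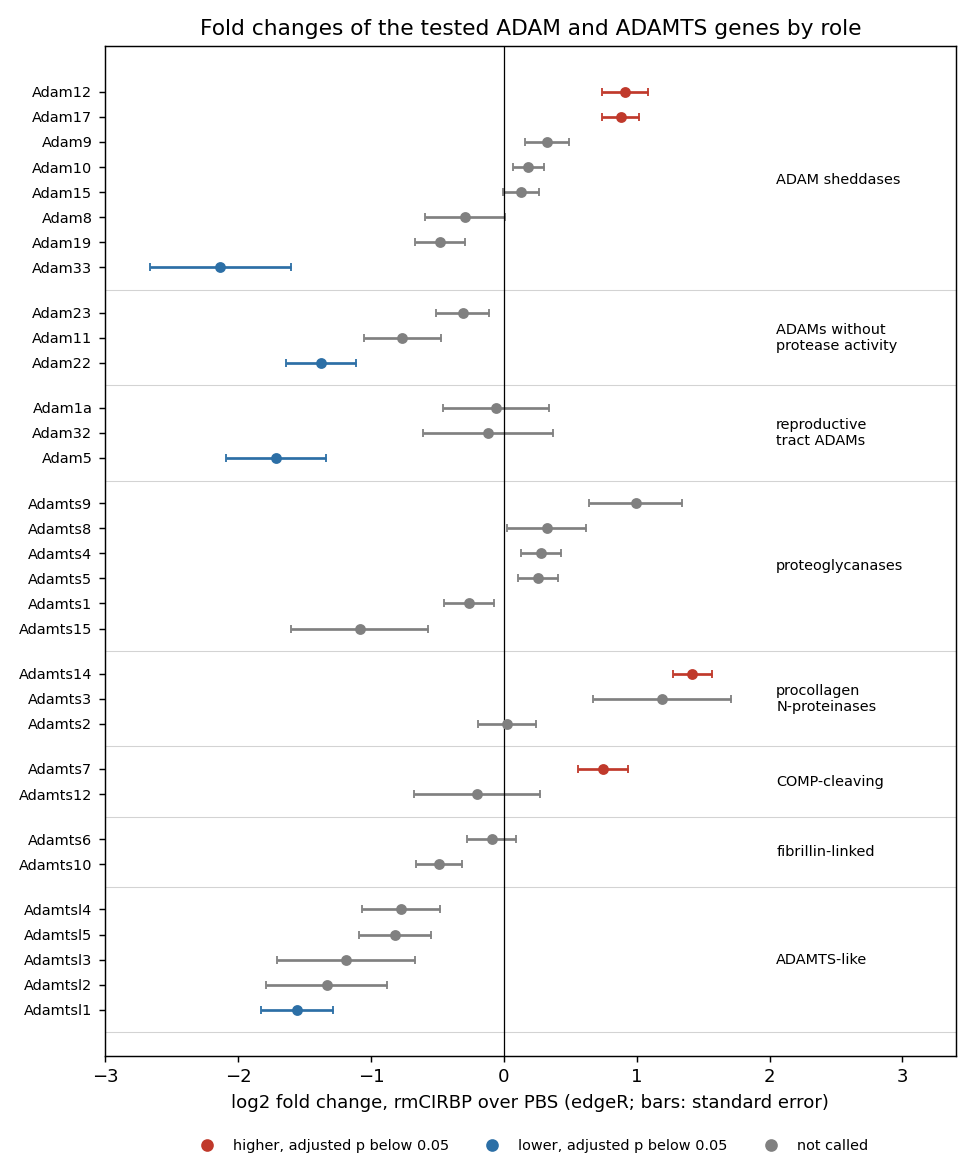
The log2 fold change of rmCIRBP over PBS (horizontal axis) is drawn for the 32 tested members, grouped by role; bars are standard errors from the edgeR fit of 3 rmCIRBP and 3 PBS libraries. The 4 members called higher lie between 0.74 and 1.42, and the 4 called lower between -2.13 and -1.38, while all 5 ADAMTS-like genes lie below 0.

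For 3 of the 8 called members, the promoter window from 250 bases before to 50 bases after the transcription start was in the RefSeq table for GRCm38.p6. They are shown because these genes changed in transcript level, Adam17 and Adamts14 upward and Adam22 downward. All 3 lie on the minus strand and are written 5′ to 3′, with capitals marking the GC box GGGCGG or its reverse complement.
Adam17, chr12:21373583-21373882: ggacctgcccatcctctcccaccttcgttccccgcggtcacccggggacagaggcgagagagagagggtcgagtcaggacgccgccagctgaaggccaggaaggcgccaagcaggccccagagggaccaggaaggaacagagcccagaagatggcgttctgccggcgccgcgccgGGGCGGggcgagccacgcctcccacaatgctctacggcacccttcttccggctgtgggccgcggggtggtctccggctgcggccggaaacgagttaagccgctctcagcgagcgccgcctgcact
Adamts14, chr10:61273370-61273669: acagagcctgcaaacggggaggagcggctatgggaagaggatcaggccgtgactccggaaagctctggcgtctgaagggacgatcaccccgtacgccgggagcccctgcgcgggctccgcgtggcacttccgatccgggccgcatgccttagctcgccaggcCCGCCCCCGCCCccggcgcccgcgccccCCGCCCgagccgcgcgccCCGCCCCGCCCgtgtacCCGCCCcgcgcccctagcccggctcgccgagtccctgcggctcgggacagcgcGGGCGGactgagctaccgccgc
Adam22, chr5:8368111-8368410: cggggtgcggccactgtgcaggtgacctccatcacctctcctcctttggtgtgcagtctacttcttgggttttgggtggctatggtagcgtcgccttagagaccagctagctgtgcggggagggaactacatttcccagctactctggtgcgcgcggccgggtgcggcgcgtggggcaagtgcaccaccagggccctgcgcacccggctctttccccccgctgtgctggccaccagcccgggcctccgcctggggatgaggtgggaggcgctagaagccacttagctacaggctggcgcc

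The Adam17 window held 30 CpG dinucleotides at 70% GC, and the Adamts14 window held 44 at 76.7% GC. In the Adam22 window there were 19 CpG dinucleotides at 66.3% GC. Over all 32851 windows of the table, the medians were 7 CpG dinucleotides and 52.7% GC. The GC box, searched on both strands with overlaps counted, occurred 7 times in the Adamts14 window, 6 of them before the start and 1 after it. It occurred 1 time in the Adam17 window, before the start, and was not in the Adam22 window. It was present in 35.7% of all windows. A further 4 patterns were searched on both strands in the same way and were in none of these 3 windows: the NF-kB consensus, the AP-1 pattern TGANTCA, the STAT pattern TTCNNNGAA and the TATA pattern TATAAA. Their shares among all windows were 8.46%, 7.81%, 8.30% and 13.6% in that order. A match, or its lack, describes only the letters in the window.

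Levels were compared between genes per kilobase of merged exon (CPM per kb). Adamts2, which removes the amino-terminal propeptide of fibrillar procollagens, and Adam9, a widely expressed sheddase, had the highest levels. Adamts2 averaged 89.1 ± 11.6 CPM per kb in rmCIRBP and 87.8 ± 23.9 in PBS libraries, and Adam9 91.9 ± 15.4 in rmCIRBP and 73.5 ± 11.1 in PBS libraries (SD, n = 3 each). Next came Adamts5 at 55.8 ± 9.20 in rmCIRBP and 46.6 ± 3.77 in PBS libraries, and Adamts1 at 50.2 ± 12.8 in rmCIRBP and 60.2 ± 4.19 in PBS libraries. Adam10 followed at 34.3 ± 1.34 in rmCIRBP and 30.2 ± 3.87 in PBS libraries. In rmCIRBP libraries the means of Adamts2 and Adam9, and those of Adamts5 and Adamts1, were closer than the SD of either gene. In PBS libraries Adamts2 and Adam9 differed by more than the SD of Adam9 but less than that of Adamts2, and Adamts1 exceeded Adamts5 by more than either SD. The sum over all 58 members was 554 ± 44.5 CPM per kb in rmCIRBP and 562 ± 34.4 in PBS libraries, a difference within the spread. The members took 0.414%, 0.375% and 0.450% of all counts in rmCIRBP libraries 1, 2 and 3, and 0.429%, 0.471% and 0.399% in PBS libraries 1, 2 and 3.

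**Figure D2:**
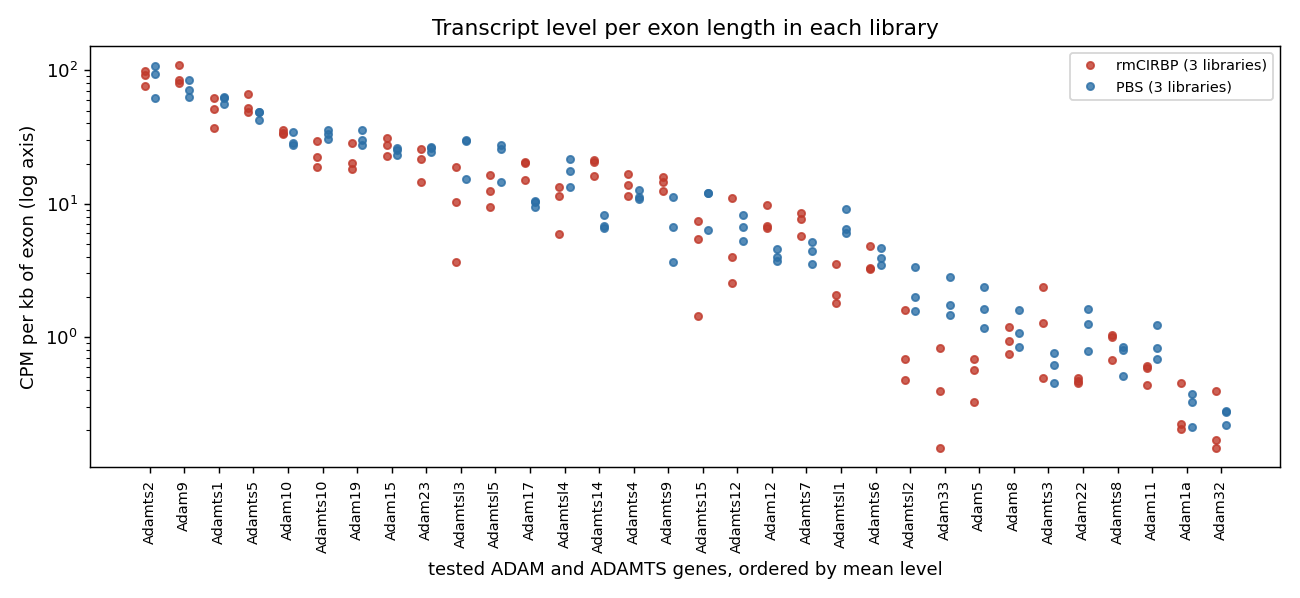
Each point is 1 library; the vertical axis is CPM per kilobase of merged exon on a log scale, for the 32 tested members ordered by their mean level, with rmCIRBP libraries left of PBS libraries. Levels run from about the 89.1 and 87.8 CPM per kb of Adamts2 down to those of Adam32, and points of Adam17 and Adamts14 separate by group.

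Among the 9 ADAM sheddase genes, 8 were tested, and 2 rose while 1 fell, beside 6.74% of all tested genes called higher and 4.77% called lower. Adam17, at chr12:21323509-21373632 on the minus strand in GRCm38, had 146, 107 and 147 CPM in rmCIRBP libraries 1, 2 and 3, against 74.3, 67.9 and 75.1 CPM in PBS libraries 1, 2 and 3. All 3 rmCIRBP libraries lay above all 3 PBS libraries, with rmCIRBP replicate 2 the lowest of its group. The mean was 133 ± 22.7 CPM in rmCIRBP and 72.4 ± 3.91 CPM in PBS libraries, and the log2 fold change was 0.88 ± 0.14 (standard error; edgeR adjusted p = 0.00767). It passed the test in all 17 alternative fits. Adam17 shares 311 exon bases with Iah1 on the opposite strand, and Iah1 had a log2 fold change of 0.01 (edgeR adjusted p = 0.966); how reads were assigned by strand was not given in the sources used here.

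Adam12, a sheddase of growth factors known from muscle and mesenchyme, lies at chr7:133883199-134232146 on the minus strand. It had 103, 71.8 and 69.8 CPM in rmCIRBP libraries, against 41.8, 48.7 and 39.4 CPM in PBS libraries. No overlap was seen between groups, and rmCIRBP replicate 1 stood above the other two. The averages were 81.5 ± 18.6 CPM in rmCIRBP and 43.3 ± 4.80 CPM in PBS libraries, a log2 fold change of 0.91 ± 0.17 (edgeR adjusted p = 0.0144). Without PBS replicate 3 the adjusted p was 0.0648, the highest of its 17 alternatives, which began at 0.000138.

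Adam33, which human genetics has tied to asthma and which is known from mesenchymal cells, lies at chr2:131050591-131063814 on the minus strand. It had 2.13, 0.795 and 4.47 CPM in rmCIRBP libraries, against 9.32, 7.89 and 15.2 CPM in PBS libraries. Every rmCIRBP library was below every PBS library, although the 3 rmCIRBP values were far apart. Its log2 fold change was -2.13 ± 0.53 (edgeR adjusted p = 0.0399), with means of 2.47 ± 1.86 CPM in rmCIRBP and 10.8 ± 3.90 CPM in PBS libraries. Single libraries decided the call: the adjusted p was 0.127 without rmCIRBP replicate 1, and 0.0531, 0.0859 and 0.140 without PBS replicate 1, 2 or 3. Without rmCIRBP replicate 3 the log2 fold change was -2.88, and over all 17 alternatives it ran from -2.88 to -1.71, with adjusted p from 0.000673 to 0.140.

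The other 5 tested sheddases were not called. Adam10, the close relative of Adam17 that releases Notch and cadherin ectodomains, had 176, 163 and 168 CPM in rmCIRBP libraries, against 170.2, 135 and 139.6 CPM in PBS libraries. The groups overlapped, and the log2 fold change was 0.19 ± 0.12 (edgeR adjusted p = 0.346). Adam9 had 333, 451 and 351 CPM in rmCIRBP libraries, against 351, 261 and 295 CPM in PBS libraries (0.32 ± 0.17, edgeR adjusted p = 0.241). Adam15, a sheddase with an integrin-binding motif, had 168, 139.6 and 192 CPM in rmCIRBP libraries, against 142, 160.4 and 154 CPM in PBS libraries (0.13 ± 0.14, edgeR adjusted p = 0.571). For both genes the groups overlapped, and 1263 exon bases of Adam15 are shared with an opposite-strand gene.

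Adam19, a sheddase of neuregulins, had 145, 204 and 129 CPM in rmCIRBP libraries, against 214, 256 and 197 CPM in PBS libraries. Only the rmCIRBP replicate 2 value reached into the PBS range, and the log2 fold change was -0.48 ± 0.19 (edgeR adjusted p = 0.138). Without that library it was -0.70 (adjusted p = 0.0203; alternatives 0.0177 to 0.382). The exons of Adam19 overlap those of Gm16033 on the other strand by 587 bases, and that gene was called lower (-1.16, edgeR adjusted p = 0.0256). Adam8, a sheddase best known from leukocytes, had 3.46, 4.34 and 5.50 CPM in rmCIRBP libraries, against 3.91, 7.40 and 4.99 CPM in PBS libraries (-0.29 ± 0.30, edgeR adjusted p = 0.562). Its groups overlapped, at a level far below those of the other uncalled sheddases.

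Since Adam17 was called and Adam10 was not, their ratio was taken within each library, a choice made after their values were seen. The ratio of Adam17 to Adam10, both in CPM per kb, was 0.569, 0.452 and 0.603 in rmCIRBP libraries, against 0.300, 0.345 and 0.369 in PBS libraries. Every rmCIRBP library was above every PBS library, with means of 0.541 ± 0.0793 and 0.338 ± 0.0353 in that order. No test of it is given, since the pair was chosen for its difference.

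**Figure D3:**
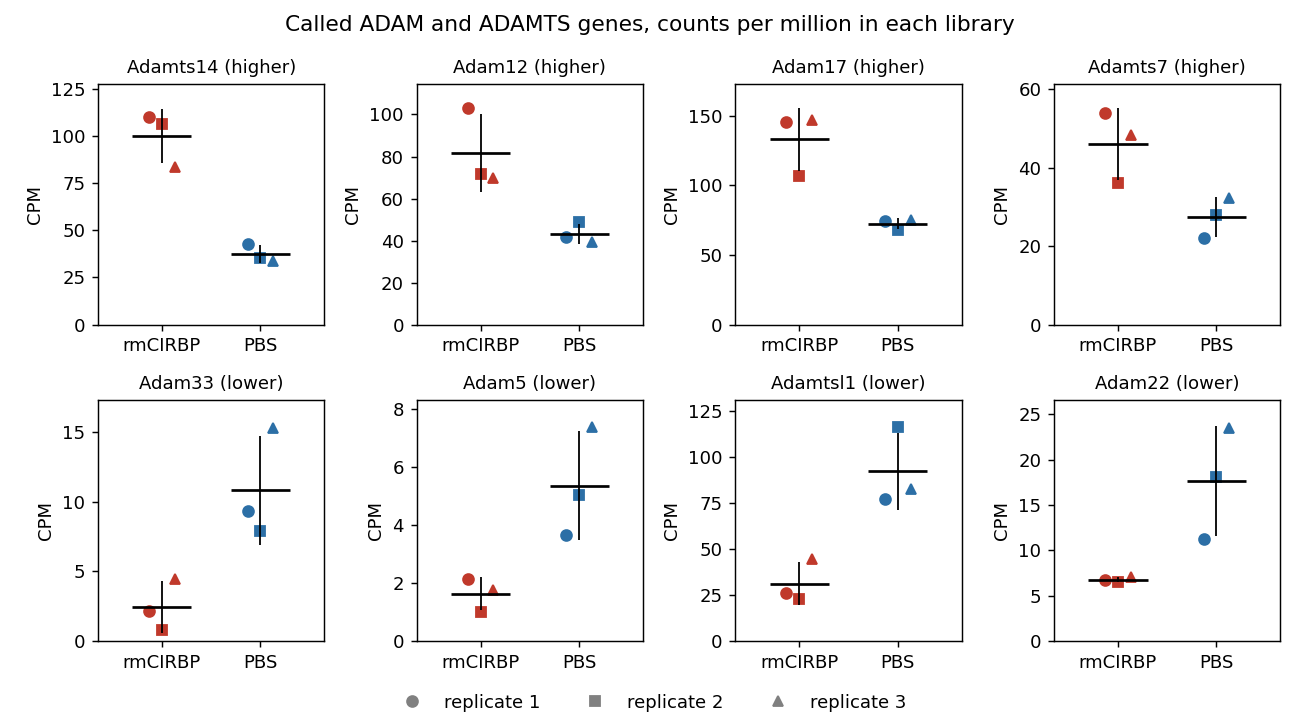
CPM of the 8 called members in each library; the horizontal line is the group mean, the vertical line 1 SD, and the marker shape the replicate number, with the 3 rmCIRBP libraries left of the 3 PBS libraries. The groups do not overlap in any of the 8 panels, and Adam33 and Adam5 are the lowest of them, with means of 2.47 and 1.63 CPM in rmCIRBP libraries.

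A further list held the 3 membrane ADAMs without protease activity that are expressed in brain and other somatic tissue. All 3 were tested, and 1 fell, beside 4.77% of all tested genes called lower. Adam22, a receptor for LGI proteins at synapses, lies at chr5:8072352-8368160 on the minus strand. It had 6.76, 6.51 and 7.11 CPM in rmCIRBP libraries, against 11.3, 18.1 and 23.4 CPM in PBS libraries. The rmCIRBP values were nearly equal and all lay below the PBS values, which were spread. The log2 fold change was -1.38 ± 0.26 (edgeR adjusted p = 0.0154), from means of 6.79 ± 0.303 CPM in rmCIRBP and 17.6 ± 6.08 CPM in PBS libraries. The call was lost without rmCIRBP replicate 1 (adjusted p = 0.0644) and without PBS replicate 2 or 3 (0.0658 and 0.0513), in a range of 6.52e-05 to 0.0658 over 17 alternatives.

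Adam23, a neuronal adhesion protein in the same branch, was the most abundant of these 3 genes. It had 387, 259 and 461 CPM in rmCIRBP libraries, against 473, 465 and 435 CPM in PBS libraries, and the groups overlapped (-0.31 ± 0.20, edgeR adjusted p = 0.349). Adam11, likewise known from nervous tissue, had 3.31, 2.46 and 3.45 CPM in rmCIRBP libraries, against 3.91, 4.72 and 6.97 CPM in PBS libraries. Its groups did not overlap, but the log2 fold change of -0.76 ± 0.29 did not pass (edgeR adjusted p = 0.132).

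ADAM genes known mainly from testis, epididymis or sperm made up 22 members, of which 11 had no count, 8 had too few and 3 were tested. Adam5, a sperm membrane gene in mouse at chr8:24727093-24824369 on the minus strand, fell. It had 2.13, 1.01 and 1.76 CPM in rmCIRBP libraries, against 3.66, 5.04 and 7.38 CPM in PBS libraries. The groups did not overlap, and the log2 fold change was -1.71 ± 0.38 (edgeR adjusted p = 0.0264), with means of 1.63 ± 0.570 CPM in rmCIRBP and 5.36 ± 1.88 CPM in PBS libraries. Without rmCIRBP replicate 1 or 3 the adjusted p was 0.0588 and 0.0562, and without PBS replicate 2 or 3 it was 0.0846 and 0.0986, in a range of 0.000780 to 0.0986 over 17 alternatives. The other tested genes of this list were not called: Adam1a had a log2 fold change of -0.06 (edgeR adjusted p = 0.941) and Adam32 of -0.12 (edgeR adjusted p = 0.896). Adam1a shares exons with Mapkapk5 on the same strand, which makes its count uncertain.

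The 3 procollagen N-proteinase genes were all tested. Adamts14, which like Adamts2 removes the amino-terminal propeptide of fibrillar procollagens, rose and had the smallest adjusted p of all members. It lies at chr10:61197112-61273438 on the minus strand and had 109.9, 106 and 83.6 CPM in rmCIRBP libraries, against 42.8, 35.4 and 33.9 CPM in PBS libraries. The lowest rmCIRBP value was well above the highest PBS value. The means were 99.9 ± 14.2 CPM in rmCIRBP and 37.4 ± 4.78 CPM in PBS libraries, a log2 fold change of 1.42 ± 0.15 (edgeR adjusted p = 0.00110). All 17 alternatives called it, with log2 fold changes of 1.35 to 1.54.

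Adamts2 itself had 862, 712 and 923 CPM in rmCIRBP libraries, against 869, 1014 and 575 CPM in PBS libraries. The groups overlapped widely, and the log2 fold change of 0.02 ± 0.22 (edgeR adjusted p = 0.959) changed sign between scalings, being -0.01 with library size alone and -0.04 with upper quartile scaling. Adamts3, the third enzyme of the group, known for its part in lymphatic growth through VEGF-C, had 6.99, 2.67 and 12.98 CPM in rmCIRBP libraries, against 4.16, 3.34 and 2.46 CPM in PBS libraries. The rmCIRBP libraries differed among themselves by more than the groups did, with replicate 2 inside the PBS range (1.19 ± 0.52, edgeR adjusted p = 0.177). Without rmCIRBP replicate 2 the log2 fold change was 1.60 (adjusted p = 0.0221; alternatives 0.0157 to 0.465).

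The ratio of Adamts14 to Adamts2, in CPM per kb and also chosen after the values were seen, was 0.229, 0.268 and 0.163 in rmCIRBP libraries, against 0.0885, 0.0627 and 0.106 in PBS libraries. The groups did not overlap, and again no test is given. Per length, Adamts2 stayed the more abundant of the pair in every library.

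Of the 2 genes known for cleaving cartilage oligomeric matrix protein, Adamts7 rose and Adamts12 was not called. Adamts7, also studied in vascular smooth muscle, lies at chr9:90163069-90208071 on the plus strand. It had 54.0, 36.0 and 48.2 CPM in rmCIRBP libraries, against 22.2, 27.99 and 32.2 CPM in PBS libraries. The groups did not overlap, but rmCIRBP replicate 2 and PBS replicate 3 were close. From means of 46.1 ± 9.18 CPM in rmCIRBP and 27.5 ± 5.02 CPM in PBS libraries, the log2 fold change was 0.74 ± 0.19 (edgeR adjusted p = 0.0426). The call was lost in 8 of 17 alternatives, among them every single library left out except rmCIRBP replicate 2, with adjusted p from 0.00531 to 0.136 over all 17. Adamts7 shares 122 exon bases with Tbc1d2b on the opposite strand, which averaged 116 CPM in rmCIRBP and 127 CPM in PBS libraries. Tbc1d2b had a log2 fold change of -0.12 (edgeR adjusted p = 0.705), and its part in the Adamts7 values was not tested. The substrate gene Comp was too low to test, at 0.217 to 0.957 CPM over the 6 libraries.

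Adamts12 had 43.8, 119.7 and 27.7 CPM in rmCIRBP libraries, against 90.1, 73.2 and 57.4 CPM in PBS libraries (-0.21 ± 0.47, edgeR adjusted p = 0.813). The rmCIRBP libraries spanned the whole PBS range, with replicate 2 above it and the other two below. Leaving out rmCIRBP replicate 2 gave -1.04 (adjusted p = 0.0315), and leaving out rmCIRBP replicate 3 gave 0.16, in an adjusted p range of 0.0315 to 0.995. Summed smooth muscle markers followed the same order within each group, at 3749, 8007 and 1544 CPM in rmCIRBP libraries and 3849, 1800 and 1567 CPM in PBS libraries, and their part in the Adamts12 values was not tested.

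None of the 6 tested proteoglycanases, the ADAMTS enzymes that cut versican, aggrecan and related proteoglycans, was called by edgeR. Adamts9 was the 1 gene with an unadjusted p under 0.05 and the 1 gene that DESeq2 called. Their summed level was 140 ± 28.1 CPM per kb in rmCIRBP and 136 ± 9.55 in PBS libraries. Adamts5, a major aggrecanase, had 566, 525 and 714 CPM in rmCIRBP libraries, against 529, 523 and 456 CPM in PBS libraries (0.26 ± 0.15, edgeR adjusted p = 0.297). Adamts4, the other main aggrecanase, had 67.0, 54.9 and 80.6 CPM in rmCIRBP libraries, against 53.6, 60.7 and 52.5 CPM in PBS libraries (0.28 ± 0.15, edgeR adjusted p = 0.263). In both genes rmCIRBP replicate 2 lay within the PBS values and rmCIRBP replicates 1 and 3 above them. Adamts1, known from ovulation and vessel growth, had 273, 195 and 330.0 CPM in rmCIRBP libraries, against 294, 337 and 327 CPM in PBS libraries (-0.26 ± 0.19, edgeR adjusted p = 0.395).

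Adamts9, a widely expressed versicanase, had 239.6, 188 and 218 CPM in rmCIRBP libraries, against 169, 100.3 and 54.8 CPM in PBS libraries. Although the groups did not overlap, the PBS libraries ranged widely, and the log2 fold change of 0.99 ± 0.35 did not pass (edgeR adjusted p = 0.108). Leaving out PBS replicate 1 gave 1.48 (adjusted p = 0.0179), and with DESeq2 the adjusted p was 0.0268, in a range of 0.00678 to 0.265 over 17 alternatives. Adamts9 shares 1381 exon bases with A730049H05Rik on the opposite strand, which had a log2 fold change of 0.18 (edgeR adjusted p = 0.766). It shares a further 424 with Gm15737, also on the opposite strand, which had 24.5, 14.2 and 19.9 CPM in rmCIRBP libraries, against 14.7, 9.11 and 3.69 CPM in PBS libraries (1.10, edgeR adjusted p = 0.143). Within each group Gm15737 had the same order of libraries as Adamts9, and its part in the Adamts9 values was not tested. Adamts15, another versicanase, had 56.0, 14.9 and 77.3 CPM in rmCIRBP libraries, against 125, 124 and 65.9 CPM in PBS libraries. One rmCIRBP library exceeded the lowest PBS library, and the log2 fold change was -1.08 ± 0.52 (edgeR adjusted p = 0.209). It was -0.65 without rmCIRBP replicate 2 and -1.56 without rmCIRBP replicate 3, and ran from -1.56 to -0.50 over 17 alternatives, none of which called it (adjusted p 0.0552 to 0.423). Adamts8 had 3.09, 4.77 and 4.62 CPM in rmCIRBP libraries, against 3.91, 2.36 and 3.69 CPM in PBS libraries, and its groups overlapped (0.32 ± 0.30, edgeR adjusted p = 0.512).

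Of the 4 ADAMTS genes tied to fibrillin microfibrils, 2 were tested and none was called in the edgeR fit of all 6 libraries; 1 of them, Adamts10, had an unadjusted p under 0.05, and DESeq2 called 0. Adamts10, in which human mutations cause a form of Weill-Marchesani syndrome, had 155, 244 and 185 CPM in rmCIRBP libraries, against 274, 293 and 253 CPM in PBS libraries. The groups did not overlap, and the log2 fold change was -0.49 ± 0.17 (edgeR adjusted p = 0.108). It was -0.68 without rmCIRBP replicate 2 (adjusted p = 0.0159). Adamts6, its close relative, had a log2 fold change of -0.09 ± 0.18 (edgeR adjusted p = 0.780).

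ADAMTS-like genes encode secreted matrix proteins, several of which bind fibrillin or modulate TGF-beta. Adamtsl1, also called punctin, fell, and the other 4 had log2 fold changes below 0 without passing the test. Of all 5, 4 had an unadjusted p under 0.05 in edgeR, and DESeq2 called 3, namely Adamtsl1, Adamtsl2 and Adamtsl5. Adamtsl1 lies at chr4:85514172-86428385 on the plus strand and had 26.5, 22.8 and 44.9 CPM in rmCIRBP libraries, against 77.6, 116 and 82.9 CPM in PBS libraries. All rmCIRBP values were below all PBS values. The log2 fold change was -1.56 ± 0.27 (edgeR adjusted p = 0.0107), with means of 31.4 ± 11.8 CPM in rmCIRBP and 92.3 ± 21.1 CPM in PBS libraries. It missed the threshold in 1 of 17 alternatives, without rmCIRBP replicate 1, at an adjusted p of 0.0526 in a range starting at 1.39e-06.

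Adamtsl2, in which human mutations cause geleophysic dysplasia, had 3.82, 12.7 and 5.50 CPM in rmCIRBP libraries, against 16.1, 26.9 and 12.6 CPM in PBS libraries. The groups met at rmCIRBP replicate 2 and PBS replicate 3, and the log2 fold change was -1.33 ± 0.46 (edgeR adjusted p = 0.0992). Adamtsl5 had 59.0, 44.5 and 77.7 CPM in rmCIRBP libraries, against 68.7, 121 and 129.6 CPM in PBS libraries, with PBS replicate 1 inside the rmCIRBP range (-0.82 ± 0.27, edgeR adjusted p = 0.0934). Both came under the threshold with 1 library left out. For Adamtsl2 this was rmCIRBP replicate 2 (adjusted p = 0.0109, alternatives 0.0109 to 0.307). For Adamtsl5 it was PBS replicate 1 (adjusted p = 0.0255, alternatives 0.00708 to 0.271). With all 6 libraries kept, both also passed with DESeq2 (adjusted p = 0.0224 for Adamtsl2 and 0.0319 for Adamtsl5). They passed with no filter on low counts too (0.0128 and 0.0142 in that order), and Adamtsl2 with the replicate block (0.0209).

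Adamtsl3 had 79.9, 28.6 and 145 CPM in rmCIRBP libraries, against 118, 232 and 229 CPM in PBS libraries, and the groups overlapped (-1.19 ± 0.52, edgeR adjusted p = 0.176). Adamtsl4, tied to lens position in human, had 48.4, 24.9 and 55.7 CPM in rmCIRBP libraries, against 55.9, 74.1 and 90.3 CPM in PBS libraries. Its highest rmCIRBP value was just under its lowest PBS value (-0.77 ± 0.29, edgeR adjusted p = 0.130). Summed over the 5 genes, the level was 36.9, 22.4 and 52.7 CPM per kb in rmCIRBP libraries, against 51.1, 85.8 and 86.6 in PBS libraries, so that rmCIRBP replicate 3 and PBS replicate 1 overlapped. All 5 fold changes were below 0 in each of the 17 alternatives, but the number called ran from 0 without rmCIRBP replicate 1 to 5 with no filter on low counts. In the same libraries the endothelial genes Kdr and Tek and the mesothelial gene Upk3b were also called lower. The endothelial gene Vwf (0.63) and the mesothelial gene Msln (-0.69) were not called, and the other markers of both lists were too low to test. The part of these markers in the values of the ADAMTS-like genes was not tested.

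Single libraries stood apart from their group for several members. In rmCIRBP replicate 2, the median size of the log2 ratio of a member to the mean of the other 2 rmCIRBP libraries (on CPM with a pseudocount of 0.5) was 0.45, against 0.24 over all tested genes. There, 5 members lay below -1, down to -2.13 for Adamts15, and 2 lay above 1, up to 1.73 for Adamts12. In rmCIRBP replicate 3 the median was 0.42, against 0.20 over all tested genes, with Adamtsl3 highest at 1.41 and Adamts12 lowest at -1.54. The corresponding medians were 0.25 in rmCIRBP replicate 1 and 0.31, 0.17 and 0.28 in PBS replicates 1, 2 and 3, against 0.15 in rmCIRBP replicate 1 and 0.23, 0.17 and 0.19 in those PBS libraries over all tested genes. These are descriptions, with no test. Summed smooth muscle markers, given above beside Adamts12, were highest in rmCIRBP replicate 2, and their part in these deviations was not tested.

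**Figure D4:**
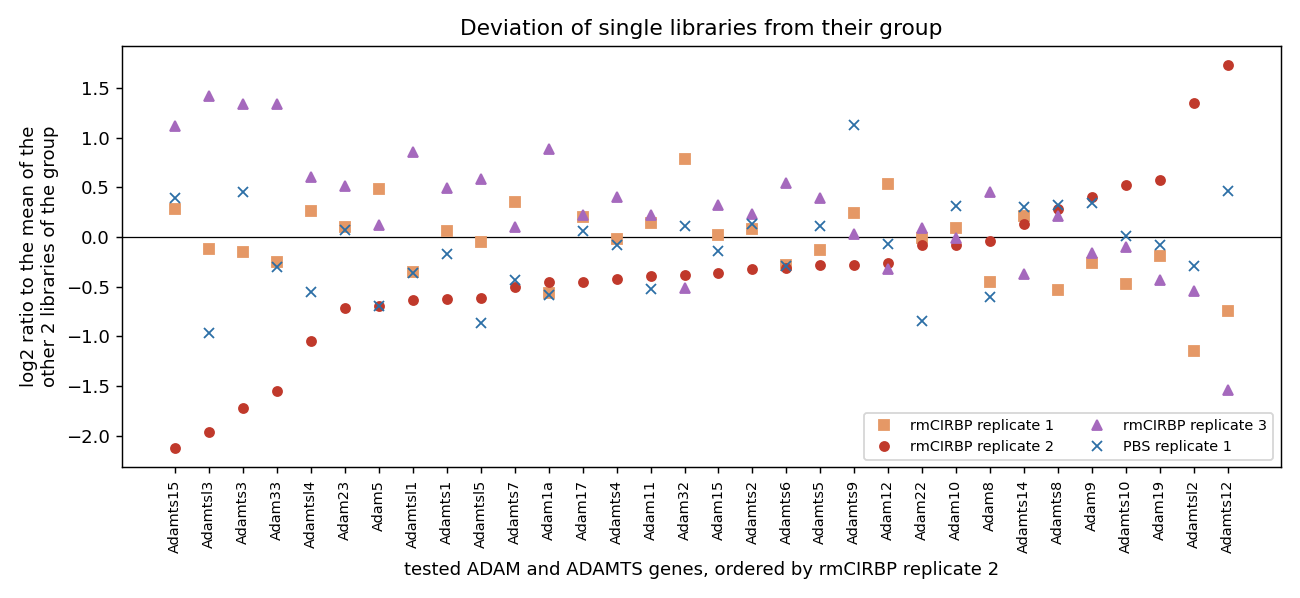
Log2 ratio of each member's CPM in 1 library to the mean of the other 2 libraries of its group (vertical axis), for the 32 tested members ordered by rmCIRBP replicate 2; the 3 rmCIRBP libraries and PBS replicate 1 are drawn. In rmCIRBP replicate 2, Adamts15 reaches -2.13 and Adamts12 reaches 1.73, with rmCIRBP replicate 3 on the other side of 0 at both ends.

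The genes that act on these proteases were taken from lists that hold no member. Of 15 genes for the maturation and traffic of ADAM17 and ADAM10, 13 were tested, and 1 rose and 3 fell, beside 6.74% of all tested genes called higher and 4.77% called lower. Rhbdf2 encodes iRhom2, which carries ADAM17 out of the endoplasmic reticulum, and it had 64.1, 54.9 and 71.2 CPM in rmCIRBP libraries, against 18.7, 18.9 and 17.1 CPM in PBS libraries. The groups were far apart, with a log2 fold change of 1.80 ± 0.13 (edgeR adjusted p = 0.000210), and all 17 alternatives called it. Its relative Rhbdf1, encoding iRhom1, was not called (0.10 ± 0.12, edgeR adjusted p = 0.651). Tspan5, a tetraspanin partner of ADAM10, fell: it had 89.3, 49.5 and 99.8 CPM in rmCIRBP libraries, against 177, 191 and 254 CPM in PBS libraries (-1.38 ± 0.26, edgeR adjusted p = 0.0151). The groups did not overlap, but without rmCIRBP replicate 1 or PBS replicate 2 or 3 its adjusted p was 0.0513, 0.0538 and 0.0575. Tspan14, also an ADAM10 partner, and Pcsk6, a proprotein convertase, fell by 0.71 and 0.64 on the log2 scale (edgeR adjusted p = 0.0211 and 0.0177). Both calls were lost without rmCIRBP replicate 1 and without PBS replicate 2 or 3, and that of Tspan14 also without rmCIRBP replicate 3, with adjusted p up to 0.0878 and 0.0816 in that order; Tspan14 was named after its value was seen.

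Of 7 inhibitor genes, 5 were tested, and 2 rose, beside 6.74% of all tested genes called higher. The median log2 fold change of the 5 was -0.58. Summed over the 7, levels were 3190, 3295 and 4448 CPM in rmCIRBP libraries, against 4156, 4876 and 5607 CPM in PBS libraries, and the groups overlapped. Timp2, the most abundant of them, and Reck, both named after their values were seen, were not called (-0.66 and -0.58, edgeR adjusted p = 0.109 and 0.382). Timp1, a tissue inhibitor of metalloproteases, had 560, 429 and 739 CPM in rmCIRBP libraries, against 122, 87.1 and 94.8 CPM in PBS libraries (2.51 ± 0.23, edgeR adjusted p = 0.000673). A2m, encoding the protease trap alpha-2-macroglobulin, had 7.72, 5.57 and 11.8 CPM in rmCIRBP libraries and 3, 2 and 1 counts in PBS libraries (5.67 ± 0.50, edgeR adjusted p = 0.000592). The groups of both genes lay far apart. Timp3, the matrix-bound inhibitor best known for blocking ADAM17 and the aggrecanases, had 731, 1100 and 1003 CPM in rmCIRBP libraries, against 1429, 1622 and 1284 CPM in PBS libraries. Its groups did not overlap, but the log2 fold change of -0.61 ± 0.18 did not pass (edgeR adjusted p = 0.0710). It passed in 5 of 17 alternatives, which were DESeq2 (0.0124), no filter on low counts (0.0291), upper quartile scaling (0.0497), rmCIRBP replicate 2 left out (-0.74, 0.0454) and that library left out with PBS replicate 1 (0.0436).

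Of 31 membrane substrates of ADAM sheddases, 27 were tested, and 10 rose while 1 fell, beside 6.74% of all tested genes called higher and 4.77% called lower, with a median log2 fold change of 0.44 beside -0.01 over all tested genes. The 3 with the smallest p were Cxcl16, a membrane-bound chemokine, at 3.71 (edgeR adjusted p = 1.80e-05), Cd44, the hyaluronan receptor, at 2.57 (3.23e-05), and Ereg, the growth factor epiregulin, at 2.79 (0.000101). Ereg had 216, 294 and 255 CPM in rmCIRBP libraries, against 43.5, 31.6 and 35.9 CPM in PBS libraries, so that the groups were wide apart. Tnf, the classical ADAM17 substrate and named after its values were seen, had 6.91, 10.9 and 1.32 CPM in rmCIRBP libraries, against 0.0832, 0.407 and 0.0684 CPM in PBS libraries (5.07 ± 0.95, edgeR adjusted p = 0.0145). The PBS values rest on 1, 5 and 1 counts, and without PBS replicate 2 the log2 fold change was 6.26. The rmCIRBP libraries were above the PBS libraries but differed widely, and the call was lost with limma voom (adjusted p = 0.0838) and without PBS replicate 3 (0.0709). Mertk, an efferocytosis receptor, was the gene that fell (-0.99, edgeR adjusted p = 0.0191; up to 0.0814 without single libraries). Of the macrophage markers, Adgre1 and Marco were called higher (2.46 and 5.52, edgeR adjusted p = 0.00440 and 0.000543), with Marco at 6.38 to 14.5 CPM in rmCIRBP and 0.163 to 0.273 CPM in PBS libraries. Mrc1 was called lower (-1.65, edgeR adjusted p = 0.0302), Lyz2, which makes up most of the sum given above, was not called (-0.55), and the part of these markers in Tnf and Mertk was not tested.

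Of 24 matrix substrates of ADAMTS proteases, 19 were tested, and Vcan, Tfpi2 and Dcn rose, beside 6.74% of all tested genes called higher. The median log2 fold change of the 19 was -0.07. Vcan, encoding versican, had 258, 150 and 246 CPM in rmCIRBP libraries, against 95.1, 96.0 and 92.8 CPM in PBS libraries (1.20 ± 0.20, edgeR adjusted p = 0.00853). All rmCIRBP libraries were above the narrow PBS range, with replicate 2 the nearest to it. Tfpi2, a protease inhibitor, had a log2 fold change of 2.10 (edgeR adjusted p = 0.00391) and Dcn, the small proteoglycan decorin, of 1.21 (0.0261). The call of Dcn was lost without rmCIRBP replicate 1 or 3 or PBS replicate 2, at adjusted p of 0.0771, 0.0589 and 0.0846. Among 7 other procollagen processing genes 4 were tested, with a median log2 fold change of -0.21. Of these, Tll1, a tolloid-like proteinase that removes the carboxy-terminal propeptide, rose by 0.59 ± 0.14 (edgeR adjusted p = 0.0333). Tll1 had 88.2, 71.1 and 94.7 CPM in rmCIRBP libraries, against 55.4, 49.95 and 63.0 CPM in PBS libraries. Its groups did not overlap, yet leaving out any 1 library except rmCIRBP replicate 2 ended the call, at adjusted p of 0.0557 to 0.119.

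**Figure D5:**
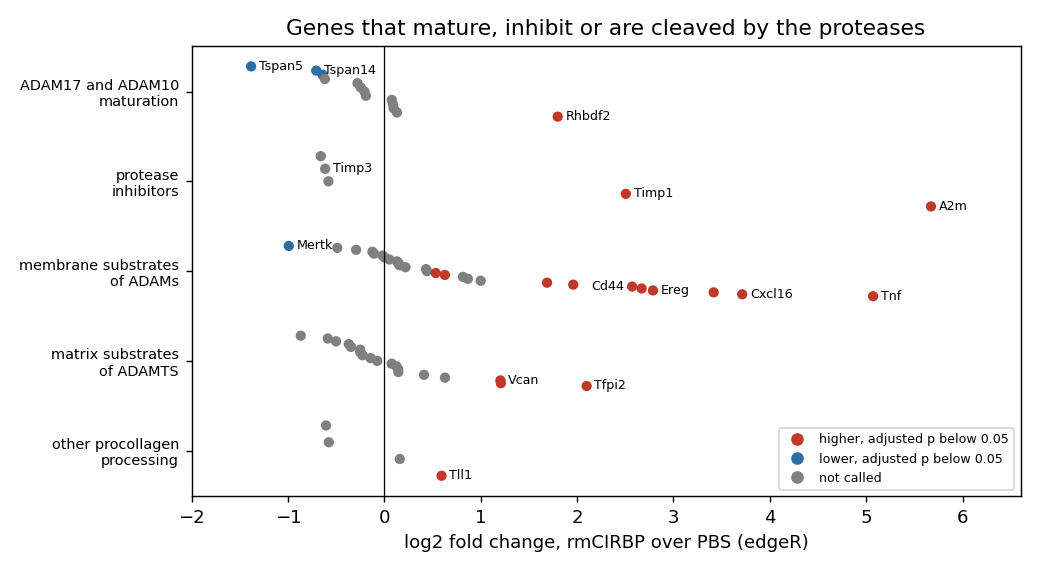
Log2 fold change of rmCIRBP over PBS (horizontal axis, edgeR) for the tested genes of 5 lists, where each point is 1 gene. The lists hold genes that mature or inhibit the family, its membrane and matrix substrates, and other procollagen processing genes. Rhbdf2 at 1.80, Timp1 at 2.51 and A2m at 5.67 stand apart in their lists, and 10 of the 27 tested membrane substrates are called higher.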

How the data were processed

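RNA-seq libraries of polyA-selected RNA were made with a TruSeq kit, per the labels' protocols. The authors deposited raw counts per gene in 1 table. Per the submitters' processing notes, featureCounts, DESeq2 and R 4.1.2 were used with GRCm38 (mm10); which aligner, annotation release, strand setting and rule for multi-mapping reads were used is not given in the sources used here. Columns were matched to samples by group and number in the titles.

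The analysis ran in R 4.3.3 and edgeR 4.0.16 on these counts: filterByExpr by group, scaling by trimmed mean of M values, and the two-sided quasi-likelihood F test on treatment alone, with Benjamini-Hochberg adjustment over 15801 genes at 0.05. The standard error was the log2 fold change divided by the root of F. CPM used the scaled library sizes, and levels per kb the merged exons of all isoforms in GENCODE M21, where all 58 members have the same start and end. Values are mean ± SD over 3 libraries.

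The members and lists were chosen with earlier results of these data known. Full values were given for called members, 17 members listed by role, the 3 highest per length, and members with adjusted p up to 0.10; other members are given more briefly, and some were chosen after their values were seen. Of each partner or substrate list, up to 3 called genes with the smallest p were named, plus Timp3, Rhbdf1 and Rhbdf2. Alternatives were other scalings, filters and thresholds, DESeq2 1.42.0, limma 3.58.1 voom, robust fitting, a replicate block, protein-coding genes alone, each library left out, and, chosen after seeing the data, PBS replicate 1 and rmCIRBP replicate 2 left out together. The fits were tested on simulated data in which 194 of 15564 genes were changed. There edgeR recovered 51.6% of 2-fold and 83.8% of 4-fold changes, and 4.35% of its calls were false. In the real data 1818 of 15801 genes were called, so these rates may not carry over. A gene that was not called is not thereby shown to be unchanged.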

Additional observations from a re-analysis of the deposited data

How the results depend on the processing

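Adamts14 and Adam17 passed in all 17 alternatives run, and no called member changed sign. Of 136 values of called members under these alternatives, 115 kept their side of the threshold and 21 lost it; of 255 values of the 15 uncalled members given in full by the naming rule, 229 kept theirs, 19 passed and 7 changed sign. Outside these 15, Adamtsl3 and Adamtsl4 passed with no filter on low counts (adjusted p = 0.0345 and 0.0306), and both, with Adamts10, passed without PBS replicate 1 and rmCIRBP replicate 2 (0.0285, 0.0165 and 0.0150). The count of members called higher was 4, and was 2 at a threshold of 0.01 (2.89% of all tested genes) and 6 without PBS replicate 1 and rmCIRBP replicate 2 together (10.4% of all); with 1 library left out it ran from 2 to 5. The count called lower was 4, and was 0 at a threshold of 0.01 (0.962% of all), 8 with no filter on low counts (3.82%), 6 with DESeq2 (7.42%), 6 at a threshold of 0.10 (8.94%) and 11 without PBS replicate 1 and rmCIRBP replicate 2 (7.07%); with 1 library left out it ran from 0 to 8, the 8 without rmCIRBP replicate 2 (3.72% of all). Of all genes, 539 were called higher and 203 lower without rmCIRBP replicate 1, 513 and 210 without PBS replicate 2, and 582 and 281 without PBS replicate 3. DESeq2 called 1446 higher and 1172 lower. Upper quartile scaling called 925 higher and 1022 lower, so that 47.5% of calls were higher, against 58.6% in the main analysis. The log2 fold change of Adamts2 changed sign with library size scaling (-0.0091), upper quartile scaling (-0.041) and without rmCIRBP replicate 1 (-0.00018), rmCIRBP replicate 3 (-0.06) or PBS replicate 3 (-0.18), with 0.21 as its highest value without 1 library, and that of Adamts12 without rmCIRBP replicate 1 (0.0083) or 3 (0.16), with -1.04 as its lowest. The cause was not tested. Adamts7 was also lost with library size scaling (adjusted p = 0.0537) and upper quartile scaling (0.0557). Deviations of same-numbered libraries had correlations of -0.107, -0.169 and 0.246, and with 3 libraries per group these cannot decide whether the numbers pair them. With the replicate block 3 members were called higher and 5 lower, and 792 and 466 of all genes. Under the block the adjusted p of Adamts7 was 0.0750, of Adamtsl2 0.0209, of Tspan14 0.0541 and of Dcn 0.0503. Of the levels, 9 of the 10 members highest per kb were also among the 10 highest by CPM. Depth limits the 26 untested members, and CPM near 0.210 to 0.248 rest on about 3 counts.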

Other observations

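Among the 15 untested members with at least 1 count, Adamts17, one of the ADAMTS genes tied to fibrillin microfibrils, had the highest mean, 0.527 CPM. It had 3, 3 and 4 counts in rmCIRBP libraries and 5, 13 and 14 counts in PBS libraries. It entered 6 of the 17 alternatives with log2 fold changes below 0, and passed in 1 of them, without PBS replicate 1 (-1.998, edgeR adjusted p = 0.0482); in the other 5 the adjusted p was 0.0709 to 0.214. Adam4, known from mouse testis, had 13, 2 and 9 counts in rmCIRBP libraries and 3, 6 and 3 counts in PBS libraries. Adamts20, known from melanoblast survival in mouse skin, had 1, 9 and 2 counts in rmCIRBP libraries and 6, 5 and 2 counts in PBS libraries. Adam28 had 3 counts, all in rmCIRBP replicate 2. Adamts13, the protease of von Willebrand factor, had 4 counts in all, and Adamts16 had 3.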
